A study of Mus musculus with 8 samples.

Results

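The genes described here are 10 that are widely used to mark astrocytes in the brain: the transporters Slc1a2, Slc1a3 and Slc4a4, the water channel Aqp4, the connexins Gja1 and Gjb6, the filament genes Gfap and Vim, and Aldh1l1 and S100b. They were found by gene symbol among 19505 named genes on the array, 1 row for each gene, and all 10 were measured. The set was chosen by its deposited values in an earlier reading of these data, for being lower with low-dose rosemary extract (RE) than in water with tail suspension, so that difference is a description here and is not tested. RNA came from brains of male ICR mice, an outbred strain, bought at 8 weeks of age and given 1 week to settle. The stressor was tail suspension (the TST of the labels): mice are hung by the tail and stop struggling after a while. There were 4 groups with 2 arrays each. Mice with TST received water, low-dose RE (10 mg/kg) or high-dose RE by mouth, and another group received water without TST. Treatment lasted 7 days and 7 mice were assigned to each group. The sample titles put the high dose at 100 mg/kg and the source names at 50 mg/kg. Groups were taken from the titles, although the agent field has "Positive Control" for the mice without TST and "Negative control" for those on water with it. The tissue is given both as limbic system and as hippocampus. Nothing says if a pair of arrays came from separate mice or pools, and p-values then cover no more than the spread between the arrays, which may be technical.

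Astrocytes take up the glutamate that neurons release, through the transporters encoded by Slc1a2 and Slc1a3. They buffer pH with bicarbonate, hold water channels in the endfeet that wrap blood vessels, and are joined into networks by gap junctions made of connexins. Their cytoskeleton contains the intermediate filament proteins encoded by Gfap and Vim, and Gfap is the classic gene of reactive astrocytes. Astrocytes differ between brain regions: the Bergmann glia of the cerebellum carry much Slc1a3, while Slc1a2 is the main glutamate transporter of the forebrain. In RNA from whole tissue, fewer astrocytes and less RNA per astrocyte cannot be told apart.

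Values are log2 values as deposited, given for replicate 1 and then replicate 2. They run up to 19.79, and 1359 exceed 16, the limit of a 16-bit scanner, so a difference has the size of the deposited scale only. Array medians lay between 7.45 and 7.51. The arrays differed in tissue content. Over 19 measured markers of cerebellar granule cells, each centred on its 8-array mean, the mean was 3.29 for water with TST replicate 2 and 1.61 for water without TST replicate 1, while the other 6 ranged from -0.993 to -0.50. Gabra6, the granule cell GABA-A receptor subunit, was at 16.37 on water with TST replicate 2 against 5.40 on replicate 1 of that group. The 13 measured forebrain excitatory neuron markers had a mean of -2.08 on water with TST replicate 2 and between -0.219 and 0.654 on the others. Low-dose RE replicate 2 had the narrowest spread of values, with an interquartile range of 4.27 against 4.51 to 4.83 on the other 7 arrays. Markers of other regions differed between arrays too. The 10 thalamic markers had means of 0.744 and 0.285 with low-dose RE against -0.076 and -0.897 in water with TST, and of 0.259 and 0.332 with high-dose RE against -0.333 and -0.317 in water without TST. The 8 choroid plexus markers had means of 0.048 and 0.816 with low-dose RE against 0.407 and -1.474 in water with TST. The 9 striatal markers had a mean of 1.656 for replicate 2 of water without TST and of -1.149 for replicate 2 of water with TST, while the other 6 arrays ranged from -0.611 to 0.189. With high-dose RE 9 of 9 were lower than in water without TST (median -1.04, 1 past the threshold given below). In water with TST 9 of 9 were lower than in water without TST (median -1.28, 3 past it). The part of these markers in the results below was not tested. In some fits an array is left out or the granule cell marker mean enters. Those fits cannot separate these markers from other traits of the same arrays.

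Among the glutamate transporters, Slc1a3 (GLAST) was lowest in the low-dose group. It was at 11.49 and 11.28 with low-dose RE, against 11.91 and 12.59 in water with TST. With high-dose RE it was at 11.85 and 11.81, and in water without TST at 12.02 and 12.03. Both low-dose arrays thus lay below all 6 others, and the other 3 groups lay close together apart from water with TST replicate 2. The low-dose difference was -0.865 (SE of the limma fit 0.272, as are all SEs below). Without water with TST replicate 2 it was -0.525 (SE 0.26), and without low-dose RE replicate 2 it was -0.76.

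Slc1a2 (GLT-1), the partner transporter, had another pattern. Its values were 17.17 and 17.14 with low-dose RE, against 17.14 and 15.89 in water with TST. High-dose RE gave 17.05 and 17.35, and water without TST 17.06 and 16.86. One array, water with TST replicate 2, was low and the other 7 lay between 16.86 and 17.35. The low-dose difference of 0.64 (SE 0.382) was 0.015 (SE 0.275) without that array. These values lie around the 16-bit limit, where the deposited scale is least certain.

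**Figure D1:**
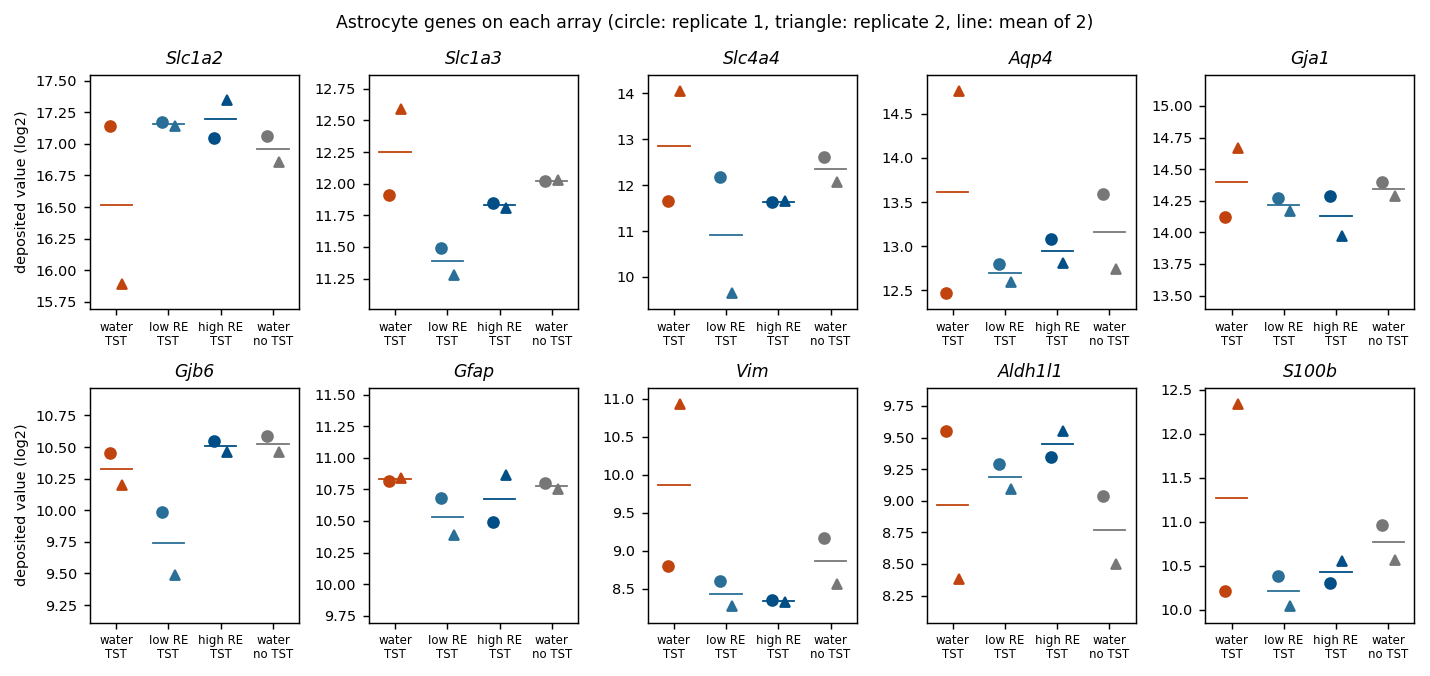
Deposited log2 value (vertical axes) of each of the 10 genes in the 4 groups (horizontal axes), with circles for replicate 1, triangles for replicate 2 and a line at the mean of both; each panel has its own axis range. For Slc1a3 and Gjb6 both low-dose arrays lie below all others, while for Vim, Aqp4, S100b and Slc4a4 the highest point is water with TST replicate 2.

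Of the connexins, Gjb6 shared the low values of Slc1a3 in the low-dose group. It was at 9.99 and 9.49 with low-dose RE, against 10.45 and 10.20 in water with TST. The high-dose arrays were at 10.55 and 10.46 and those of water without TST at 10.59 and 10.46. Both low-dose arrays were below the other 6, which spanned 10.20 to 10.59, and the high-dose group was level with water without TST. The low-dose difference was -0.585 (SE 0.253). It was -0.71 (SE 0.298) without water with TST replicate 2 and -0.335 (SE 0.266) without low-dose RE replicate 2, the lower array of its pair.

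Gja1, the other main astrocyte connexin gene, moved little. It was at 14.27 and 14.17 with low-dose RE, against 14.12 and 14.67 in water with TST. High-dose RE had 14.29 and 13.97 and water without TST 14.40 and 14.29. The 3 groups with TST overlapped, and the low-dose difference was -0.175 (SE 0.263), or 0.1 without water with TST replicate 2.

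Slc1a3 and Gjb6 were the only members with both low-dose arrays below all 6 others, 2 of 10, where 2.32% of all 22206 rows had that pattern. Since the members were chosen for low values in this group, nothing is read from that count. The windows of 250 bases before to 50 after their starts are shown because these are the members that were low together. Both come from RefSeq on GRCm38.p6 and are written 5′ to 3′ on the gene's strand. That of Slc1a3 is chr15:8710758-8711057, minus strand, and that of Gjb6 chr14:57133562-57133861, minus strand. Capitals mark matches, on either strand, to ACAAT (core of SOX factor sites), TTGGC (part of the site of nuclear factor I) or TTCNNNGAA (STAT factors), which are regulators known in astrocytes. No match overlaps another.
Slc1a3: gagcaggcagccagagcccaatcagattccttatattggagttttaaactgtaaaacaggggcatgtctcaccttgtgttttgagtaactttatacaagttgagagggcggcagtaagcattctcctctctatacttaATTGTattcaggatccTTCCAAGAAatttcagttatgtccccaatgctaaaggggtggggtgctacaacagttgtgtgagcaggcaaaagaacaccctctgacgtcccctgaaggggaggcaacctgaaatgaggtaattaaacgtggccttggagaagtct
Gjb6: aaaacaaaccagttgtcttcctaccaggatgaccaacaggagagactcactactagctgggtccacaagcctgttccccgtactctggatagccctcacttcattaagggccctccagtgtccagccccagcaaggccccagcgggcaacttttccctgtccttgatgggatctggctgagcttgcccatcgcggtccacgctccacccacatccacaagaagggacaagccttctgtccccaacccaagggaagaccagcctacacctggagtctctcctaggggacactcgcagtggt
The Slc1a3 window held 1 ACAAT and 1 TTCNNNGAA match, and the Gjb6 window 0 of either and 0 TTGGC. Over 10 windows of 9 members, 1 held ACAAT, 5 held TTGGC and 2 held TTCNNNGAA. Of all 32851 windows of this length, 31.0%, 46.7% and 8.3% did. These letters are a description of the windows and not sites.

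Slc4a4, the sodium bicarbonate cotransporter NBCe1, had the widest range of the 10. It was at 12.17 and 9.65 with low-dose RE, against 11.65 and 14.06 in water with TST. The high-dose arrays stood at 11.63 and 11.66 and water without TST at 12.61 and 12.08. Each of the pairs of low-dose RE and water with TST held 1 extreme array, and low-dose RE replicate 1 was above water with TST replicate 1. The low-dose difference of -1.945 (SE 0.890) was -0.74 (SE 0.826) without water with TST replicate 2 and -0.685 (SE 0.861) without low-dose RE replicate 2. Only 14 of all 22206 rows (0.063%) had a larger gap, in either direction, between the low-dose replicates than Slc4a4 (2.52).

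Aqp4 encodes the water channel of the endfeet. It was at 12.80 and 12.59 with low-dose RE, against 12.47 and 14.76 in water with TST. With high-dose RE it stood at 13.08 and 12.81, and in water without TST at 13.59 and 12.74. Both low-dose arrays lay above water with TST replicate 1 and far below replicate 2. The difference of -0.92 (SE 0.640) turned to 0.225 (SE 0.376) without water with TST replicate 2.

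The filament genes differed from each other. Gfap was nearly level, at 10.68 and 10.39 with low-dose RE, against 10.82 and 10.84 in water with TST. It was at 10.49 and 10.86 with high-dose RE and at 10.80 and 10.75 in water without TST. Both low-dose arrays were below both water arrays with TST, but by a difference of -0.295 (SE 0.239), and high-dose RE replicate 1 was lower than low-dose RE replicate 1.

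Vim, which endothelial, meningeal and ependymal cells also express, was at 8.60 and 8.27 with low-dose RE, against 8.80 and 10.93 in water with TST. It was at 8.35 and 8.33 with high-dose RE and at 9.17 and 8.56 in water without TST. Both extract groups lay below both water arrays with TST, and water with TST replicate 2 stood 2.13 above its partner. The low-dose difference of -1.43 (SE 0.588) was -0.365 (SE 0.329) without that array. Of the markers of meningeal fibroblasts, 9 of 10 measured were lower with low-dose RE too (median -0.618). Their mean was -0.417 and -0.296 with low-dose RE against 0.442 and 0.221 in water with TST. Within that water pair their mean was thus lower on replicate 2, where Vim was higher. With high-dose RE the mean of these markers was 0.046 and -0.374, and in water without TST 0.518 and -0.143. Endothelial markers had means of 0.072 and -0.142 with low-dose RE against 0.055 and 0.134 in water with TST. Ependymal markers had 0.490 and 0.012 against -0.010 and -0.365. Their part in the Vim values was not tested.

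Aldh1l1, a folate enzyme gene used to mark astrocytes throughout the brain, was at 9.29 and 9.09 with low-dose RE, against 9.55 and 8.38 in water with TST. It was at 9.35 and 9.55 with high-dose RE and at 9.04 and 8.50 in water without TST. The low-dose pair lay between the water arrays with TST, with a difference of 0.225 (SE 0.385) that turned to -0.36 (SE 0.313) without water with TST replicate 2. S100b, which encodes a calcium-binding protein also present in some oligodendrocytes, was at 10.39 and 10.04 with low-dose RE, against 10.21 and 12.34 in water with TST. It was at 10.30 and 10.56 with high-dose RE and at 10.97 and 10.57 in water without TST. The difference of S100b was -1.06 (SE 0.581). It was 0.005 (SE 0.31) without water with TST replicate 2 and -2.125 without replicate 1 of that group.

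The members were separated by their values on the 2 arrays with raised cerebellar markers. A gene was said to track cerebellar content upward where its values on those arrays (replicate 2 of water with TST, replicate 1 of water without) were both above the other 6. By this rule 5 of 10 members did: Slc4a4, Aqp4, Gja1, Vim and S100b. Of all rows 7.48% had this pattern upward and 6.43% downward, and no member had it downward. Since the members were chosen for being higher in water with TST than with low-dose RE, the rule shares arrays with that choice, and nothing is read from the count against these shares. Vim was at 10.93 and 9.17 on these arrays, against 8.27 to 8.80 on the others. Aqp4 was at 14.76 and 13.59, against 12.47 to 13.08, and S100b at 12.34 and 10.97, against 10.04 to 10.57. For Gja1 the margin was narrow, 14.67 and 14.40 against at most 14.29. Purkinje cell markers were highest on the same 2 arrays, at 2.92 and 1.36, so that list gives the same 5 genes by construction. Of the other 5 members, Slc1a3 missed the rule narrowly, with 12.59 and 12.02 on these arrays against at most 12.03 on the others. Slc1a2 and Aldh1l1 were low on the array where Slc1a3 was at 12.59. Gfap differed by 0.02 within the pair of water with TST and Gjb6 by -0.25 (replicate 2 minus replicate 1). Markers of Bergmann glia, 10 measured, had means of 1.47 and 0.464 on the 2 arrays and -0.434 to -0.193 on the others, with Gdf10 at 10.57 and 9.10 against 6.60 to 7.08. That list includes Slc1a6, which is also on the Purkinje cell list, so its mean is not of Bergmann glia alone.

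**Figure D2:**
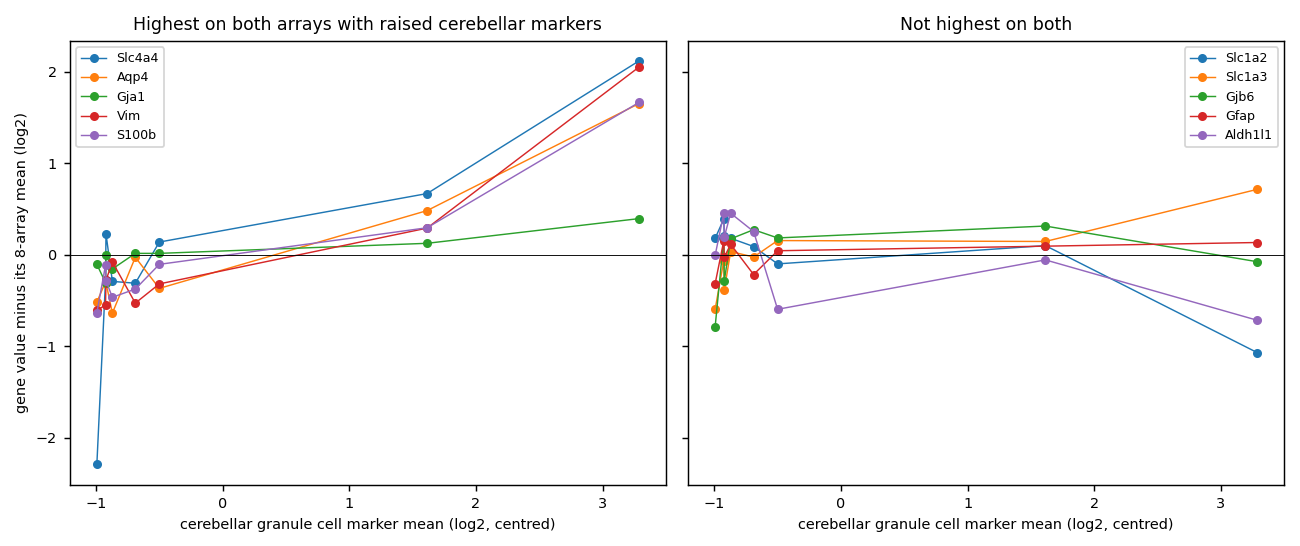
Each member's value minus its 8-array mean (vertical axis, log2) against the mean of 19 cerebellar granule cell markers on the same array (horizontal axis, log2, centred); each point is 1 array, and lines join the arrays of a gene. The 5 genes on the left are highest on both arrays at the right of the axis (1.61 and 3.29); of the 5 on the right, Slc1a2 and Aldh1l1 are lowest on the array at 3.29.

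Across the set, 8 of 10 members were lower with low-dose RE than in water with TST, and the median difference was -0.725, beside 0.015 over all rows. The members past the study's threshold (more than 1.2-fold, with an unadjusted p below 0.05) numbered 3, Slc1a3, Gjb6 and Vim, all lower, where 3.54% of all rows passed, 1.94% higher and 1.61% lower. As this contrast chose the members, that count is given without a test. No overlap with water with TST was seen for 4 of 10 (Slc1a3, Gjb6, Gfap and Vim), a pattern held by 11.9% of all rows. Low-dose RE replicate 2 was the lowest of the 8 arrays for 6 of 10 members and for 14.6% of all rows. Since low values in this group chose the members, nothing is read from either pattern against these shares. With water with TST replicate 2 left out the median difference was -0.3225, and Slc4a4, Gjb6 and Slc1a3 were the lowest. With replicate 1 of that group left out instead, Slc4a4 was at -3.15, Vim at -2.495, S100b at -2.125, Aqp4 at -2.065 and Slc1a3 at -1.205. Gjb6 was then at -0.46, Gja1 at -0.45, Gfap at -0.305, Aldh1l1 at 0.81 and Slc1a2 at 1.265. With the cerebellar marker mean as a covariate the median was -0.215. In that fit Slc1a3 was at -0.584 (SE 0.273), Gjb6 at -0.655 (SE 0.300) and Gfap at -0.283 (SE 0.286). Vim was at -0.420 (SE 0.294), S100b at -0.101 (SE 0.339) and Aqp4 at 0.211 (SE 0.271). None was past the threshold there. Gfap and Gjb6 thus moved least from their values without the covariate, Slc1a3 moved more, and Slc4a4, Aqp4, Vim and S100b moved most.

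**Figure D3:**
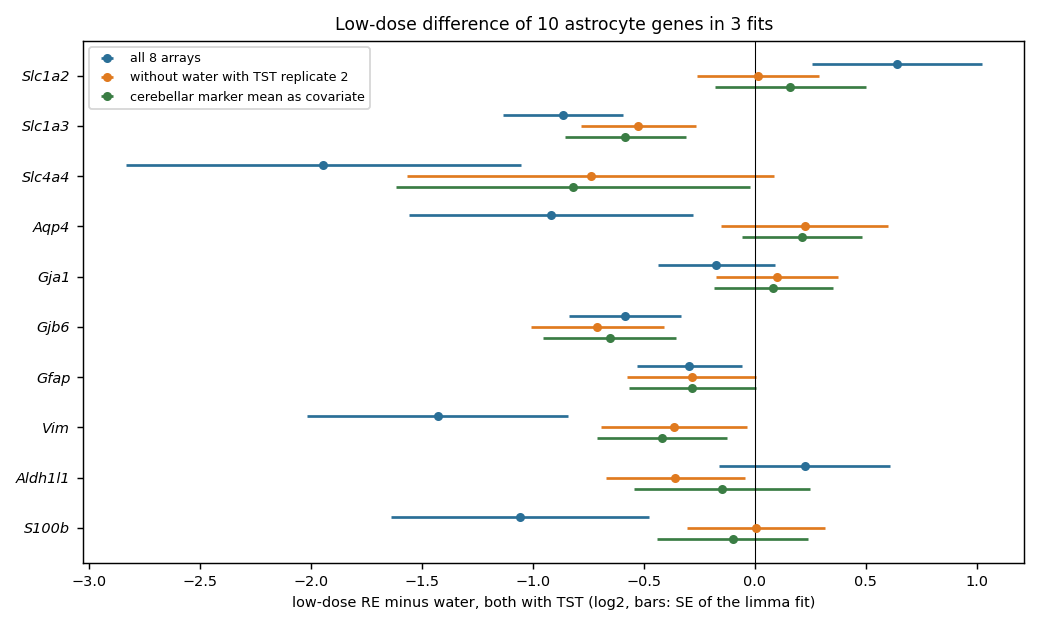
Low-dose RE minus water, both with TST (horizontal axis, log2; bars are the SE of the limma fit), for each of the 10 genes with all 8 arrays (blue), without water with TST replicate 2 (orange) and with the cerebellar marker mean as a covariate (green). The points of Gjb6 and Gfap lie close together, while those of S100b move from -1.06 to 0.005 and -0.101.

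The other comparisons were fitted with limma. Where 1 array is left out, its group keeps a single array and the spread is taken from the other groups. High-dose RE against water without TST shares no array with the low-dose contrast, though dose and TST differ together in it. There 0 of 10 members passed the threshold, where 1.97% of all rows did (1.14% higher and 0.824% lower), and the lowest unadjusted p, that of Aldh1l1, was 0.114. Aldh1l1 was higher by 0.68 (SE 0.385), with 9.35 and 9.55 above both arrays of water without TST (adjusted p = 0.9998). It was past the threshold with either array of water with TST left out, which changes the SE (0.256) and not the difference. Slc1a3 was at -0.195 (SE 0.272), Gjb6 at -0.02 (SE 0.253) and the median member at -0.205, beside 0.015 over all rows. Without replicate 2 of water without TST, the array highest in striatal markers, Aldh1l1 was at 0.41 (SE 0.482), Slc1a3 at -0.19 and Gjb6 at -0.085. Without replicate 1 of that group, which had raised cerebellar markers, Aldh1l1 was at 0.95, Slc1a3 at -0.20 and Gjb6 at 0.045. Aqp4 was then at 0.205, against -0.22 with all arrays, and Vim at -0.22, against -0.525.

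High-dose RE against water with TST shares its control arrays with the low-dose contrast. Of 10 members 1 passed the threshold, Vim, where 3.17% of all rows did (1.67% higher and 1.51% lower). Vim was at -1.525 (SE 0.588), with limma's unadjusted p = 0.0310 and adjusted p = 0.973, and at -0.46, no longer called, when water with TST replicate 2 was left out. The call was also lost without either high-dose array (-1.535 and -1.515). Slc1a3 was at -0.42 (SE 0.272) and Gjb6 at 0.18 (SE 0.253), and at -0.08 and 0.055 without water with TST replicate 2. In that setting Slc4a4 was at -0.005, S100b at 0.22 and Aqp4 at 0.475, and 0 of 10 members passed. With replicate 1 of that group left out instead, the array rich in cerebellar markers was the only control. Slc4a4 was then at -2.415, S100b at -1.91, Aqp4 at -1.815, Vim at -2.59, Slc1a3 at -0.76 and Gjb6 at 0.305.

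High-dose against low-dose RE shares the low-dose arrays that chose the members. Gjb6 was higher by 0.765 (SE 0.253; limma unadjusted p = 0.0157, adjusted p = 1) and was the 1 of 10 members past the threshold, where 1.91% of all rows passed (0.946% higher and 0.968% lower). It was lost without low-dose RE replicate 2 (0.515) or high-dose RE replicate 1 (0.72). Slc1a3 was higher by 0.445 (SE 0.272), with both high-dose arrays above both low-dose arrays, and did not pass.

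Water with TST against water without TST uses the water arrays from which the members were chosen as higher than low-dose RE, so its direction is partly set by that choice, and the values are a description. Of 10 members 0 passed the threshold, where 2.55% of all rows passed (1.29% higher and 1.26% lower). Vim was at 1.0 (SE 0.588), Slc4a4 at 0.51 (SE 0.890), S100b at 0.505 (SE 0.581) and Slc1a2 at -0.445 (SE 0.382). Each of these turned without water with TST replicate 2, to -0.065 for Vim, -0.695 for Slc4a4, -0.56 for S100b and 0.18 for Slc1a2, and Aldh1l1 alone was past the threshold there, at 0.78 (SE 0.313). Without replicate 1 of that group Vim was at 2.065, Slc4a4 at 1.715, Aqp4 at 1.595, S100b at 1.57 and Slc1a2 at -1.07. Slc1a3 was at 0.565 without replicate 1 and at -0.115 without replicate 2. The 2 arrays of water with TST give opposite signs for Vim, Slc4a4, Aqp4, S100b, Slc1a2, Slc1a3, Gja1 and Aldh1l1. Only Gjb6 and Gfap keep theirs. In none of these comparisons, low dose included, did any of the 22206 rows pass an adjusted p of 0.05.

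Other astrocyte genes were read from lists made with earlier results of these data known. Of 37 other astrocyte genes measured, 22 were lower and 14 higher with low-dose RE, with a median of -0.16 beside 0.015 over all rows. The median was -0.045 without water with TST replicate 2. Sox9, an astrocyte transcription factor, was the 1 past the threshold, at -0.595, and was at -0.395 and not past it without that array. The lowest were Ednrb, the endothelin B receptor, at -0.88 (SE 0.483) and Atp1b2, a sodium pump subunit, at -0.80 (SE 0.515), against -0.055 and 0.135 without that array. The highest were Cpe, a neuropeptide-processing enzyme, at 0.84 (SE 0.466) and Gpc5, a glypican, at 0.52 (SE 0.332), against 0 and 0.23 without it. Without replicate 1 of water with TST instead, Ednrb was at -1.705, Atp1b2 at -1.735, Cpe at 1.68 and Gpc5 at 0.81. These 4 were named as the extremes of this difference, so nothing is read from their shifts.

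Both low-dose arrays were below all 6 others for 2 of 37, where 2.32% of all rows had that pattern. Apoe, the main lipid carrier gene of the brain, was at 17.46 and 17.50 with low-dose RE, against 17.57 to 17.76 on the others. Fgfr3, a growth factor receptor gene, was at 11.79 and 11.81, against 11.88 to 12.22, with a low-dose difference of -0.23 (SE 0.226). Neither passed the threshold. Values on the 2 arrays with raised cerebellar markers were both highest for 5 of 37 (Acsbg1, Atp1b2, Slc14a1, Lcat and Ednrb) and both lowest for 2, beside 7.48% and 6.43% of all rows. In high-dose RE against water without TST 2 of 37 were past the threshold and lower, where 0.824% of all rows were, with limma adjusted p = 0.9998. Gabrg1, a GABA-A receptor subunit gene, was at -1.075 (SE 0.379), and at -0.625 and not past it without replicate 2 of water without TST. Fgfbp3 was at -0.615 (SE 0.243), and at -0.38 and not past it without high-dose RE replicate 2.

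**Figure D4:**
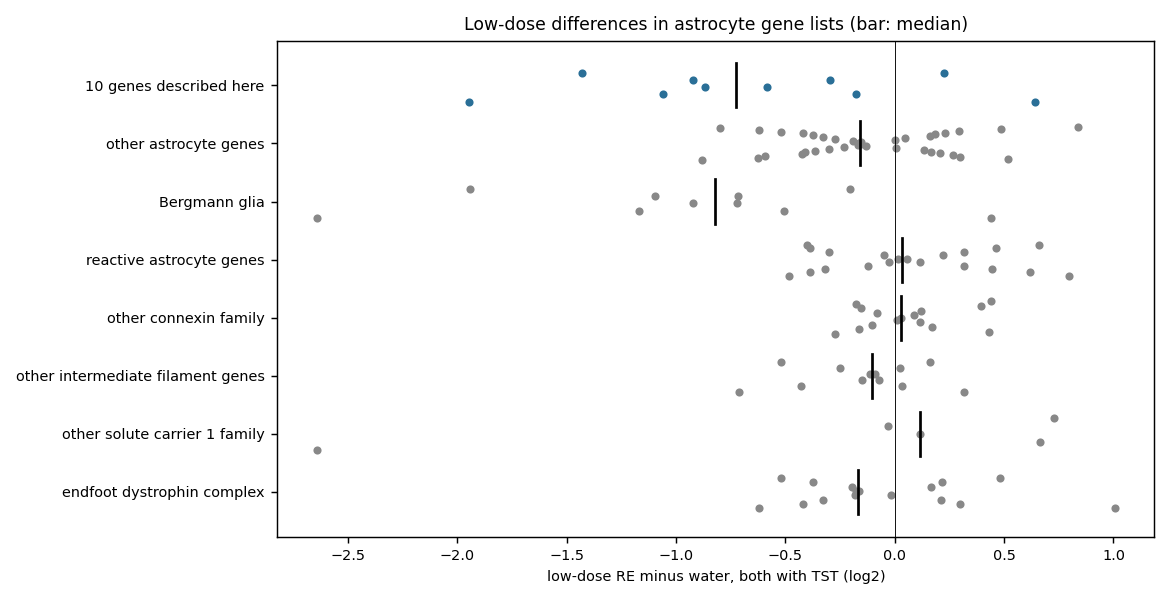
Low-dose RE minus water, both with TST (horizontal axis, log2), for the 10 genes described here (blue) and for the measured genes of 7 other lists without those 10 (grey); each point is 1 gene and each bar a median. The median is -0.725 for the 10 genes, -0.16 for the other astrocyte genes, -0.82 for Bergmann glia markers and 0.035 for reactive astrocyte genes. The Bergmann glia list includes Slc1a6, which is also a Purkinje cell marker.

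Relatives of the members were counted without them, and each low-dose difference is followed by its value without water with TST replicate 2 ("without it"). In the glutamate transporter family Slc1, 2 of 5 were lower with low-dose RE (median 0.115, without it 0.14). Slc1a6, the transporter of Purkinje cells, was the 1 past the threshold at -2.64 (SE 1.14), with 7.48 and 6.69 with low-dose RE against 7.64 and 11.81 in water with TST, and was at -0.555 without it. Slc1a5 was at -0.03 (without it 0.395), the neutral amino acid transporter gene Slc1a4 at 0.665 (without it 0.165) and the neuronal glutamate transporter gene Slc1a1 at 0.73 (without it -0.085). Of 9 glutamate and glutamine handling genes 0 passed (median -0.005, without it 0). The amino acid transporter genes Slc38a2 at -0.555 (without it -0.23) and Slc38a1 at -0.315 (without it 0.24) were lowest. The vesicular glutamate transporter gene Slc17a7 was at 0.49 (without it 0), and Slc17a6, which is also on the thalamic marker list, at 0.71 (without it 1.005, then past the threshold).

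In the bicarbonate transporter family Slc4 with carbonic anhydrases, 6 of 11 were lower (median -0.09, without it 0.035). The anion exchanger gene Slc4a2 was the 1 past the threshold, at 0.79 (without it 0.51), and was at 0.37 without low-dose RE replicate 1. The carbonic anhydrase gene Car4 was at -1.0 (without it 0.06), Slc4a9 at -0.455 (without it 0.1) and Slc4a8 at 0.475 (without it -0.095). Of 15 other connexin family genes, 6 were lower and 0 passed (median 0.03, without it 0.04). The oligodendrocyte connexin gene Gjb1 was at -0.275 (without it 0.035), Gjd3 at -0.175 (without it 0.04), Gja5 at 0.43 (without it 0.365) and Gja10 at 0.44 (without it 0.37). Gjb1 was past the threshold in high-dose RE against water without TST, at 0.775 (SE 0.331), and was not without high-dose RE replicate 1 (0.52) or without either array of water without TST (0.965 and 0.585).

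Of 12 other intermediate filament genes 8 were lower and 0 passed (median -0.103, without it -0.05). The neurofilament genes Nefh at -0.71 and Nefm at -0.52 were both at -0.05 without it, and the lamin genes Lmnb1 and Lmnb2 were at 0.16 (without it 0.455) and 0.315 (without it 0.91, for Lmnb2 then past the threshold). Of 10 other aquaporins 6 were lower and 0 passed (median -0.06, without it 0.0725). Aqp6 was at -1.355 (without it 0.275), Aqp7 at -0.39 (without it 0.235), Aqp3 at 0.23 (without it 0.66) and Aqp1, the choroid plexus channel gene, at 0.57 (without it 0.09).

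The complex that anchors Aqp4 at endfeet had 10 of 16 genes lower (median -0.17, without it 0.1025). Sntb1, a syntrophin gene, was the 1 past the threshold, at 1.005 (without it 0.675). Utrn was at -0.62 (without it 0.135), Hepacam at -0.52 (without it -0.30) and Dmd at 0.48 (without it -0.48). Of 15 other S100 genes 7 were lower and 0 passed (median 0.005, without it 0.025), with S100a16 at -0.51 (without it -0.345), S100a6 at -0.505 (without it -0.295), S100a13 at 0.45 (without it 0.49) and S100g at 0.72 (without it 0.21). S100a1 was past the threshold in high-dose RE against water without TST, at -0.80 (SE 0.319), and was lost with any 1 of those 4 arrays left out (-0.965 to -0.635).

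Of 6 other ALDH1 genes 4 were lower and 0 passed (median -0.338, without it 0.1175). Aldh1a1 was at -1.355 (without it 0.175), Aldh1l2 at -0.83 (without it -0.15), Aldh1a3 at 0.03 (without it 0.06) and Aldh1b1 at 0.295 (without it 0.23). Genes of reactive astrocytes, 20 measured, had 9 lower and 11 higher (median 0.035, without it -0.005). Cd109 was the 1 past the threshold, at 0.66 (without it 0.465), and was at 0.485 without low-dose RE replicate 2. Tgm1 was at -0.485 (without it -0.05), Srgn at -0.40 (without it -0.69) and Fkbp5, a glucocorticoid target gene, at 0.795 (without it -0.1). The list genes past the threshold in the low-dose comparison, Sox9, Slc1a6, Slc4a2, Sntb1 and Cd109, were all short of it without water with TST replicate 2. Other genes were past it in that fit instead. They came from the other astrocyte, reactive astrocyte, connexin, S100, filament and glutamate handling lists, Slc17a6 and Lmnb2 among them.

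For each member the most similar of 9741 other genes, those with a mean above the median of all genes, was found by Pearson's r over the 8 arrays. It was Frmpd4 for Slc1a2 (0.995), Snx27 for Slc1a3 (0.983), Efcab2 for Slc4a4 (0.977), Ebf1 for Aqp4 (0.993) and Samd14 for Gja1 (0.980). It was Kdm5d for Gjb6 (0.962), Il6st for Gfap (0.973), Ak4 for Vim (0.992), Prrc2a for Aldh1l1 (0.983) and Selenom for S100b (0.993). The number of genes with r above 0.9 was 547 for Slc1a2, 449 for Vim, 404 for S100b and 389 for Aqp4, against 55 for Slc1a3, 20 for Gfap and 10 for Gjb6. All genes share the same 8 arrays, 2 of them with raised cerebellar markers. Each named gene is the highest of 9741, and no background is given for r or for these counts. Nothing is therefore read from them.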

How the data were processed

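RNA of 8 samples was hybridised to 1-colour Clariom S arrays, 1 per sample. Per the submitters' design text, the authors used Transcriptome Analysis Console 4.0.1 for robust multichip averaging. The deposited log2 values, with 2 decimals, were used unchanged. The platform annotation named 19572 of 22206 rows, all matched to the gene table by identifier; each member had 1 row. No source used here gives the array's genome build. Groups follow the titles.

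All rows and all 8 arrays entered one fit with a mean for each of 4 groups in limma 3.58.1, R 4.3.3 (lmFit, eBayes; 4 residual and 4.30 prior degrees of freedom). Two-sided p-values were adjusted by Benjamini and Hochberg's method across the whole table. The threshold is that of the submitters' design text, 1.2-fold (0.263 on the log2 scale) with unadjusted p below 0.05. The fit was tested on simulated data. With 1 array left out, the spread comes from the groups that keep both. Precision is limited by how few arrays there are; detection calls were not used here. Members, lists and motifs were chosen with earlier results of these data known. By rule, the text names all members, the 2 lowest and 2 highest of each list in the low-dose difference, list genes past the threshold in high-dose RE against water without TST (up to 4 a list), and the most similar gene of each member; list genes named for other reasons (Sox9, Apoe, Fgfr3, those tracking cerebellar content) were chosen after their values were seen.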

Additional observations from a re-analysis of the deposited data

How the results depend on the processing

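Of 10 members, the number past the threshold for low-dose RE, 3, was 1 in a fit of only the groups compared, 0 by the methods' one-way analysis of variance, 0 with the cerebellar marker mean as covariate, and 0 without both arrays raised in cerebellar markers (an alternative chosen after seeing the data). It lay between 0 and 7 with 1 array left out. The median difference, -0.725, was -0.215 with the covariate, -0.3225 without both arrays, and between -0.9025 and -0.3225 with 1 array left out. For high-dose RE against water with TST the count of 1 was 0 in each of those 4 settings and between 0 and 7 with 1 array left out. For high-dose against low-dose RE it was 0 by the analysis of variance and between 0 and 1 with 1 array left out. For TST the count of 0 was 1 with the covariate (Vim), 1 without both arrays (Aldh1l1) and between 0 and 4 with 1 array left out. For high-dose RE against water without TST it was 2 in a fit of only those groups (Aldh1l1 and Slc4a4), 1 without both arrays and between 0 and 1 with 1 array left out. The analysis of variance took only the groups of each comparison. Fewer residual degrees of freedom come with it and with each of the smaller fits. Beyond that the cause was not tested. The share of all rows past the threshold is not given for fits of only the groups compared or with the covariate. Nor is it given for fits with 1 array or both arrays left out. Nothing is read from the counts of members in any of these fits. No member past the threshold changed sign under any alternative run.

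The replicate numbers did not pair the arrays: deviations of same-numbered arrays from their group means correlated at -0.293 to 0.169 between groups, over all rows. With the replicate block the members past the threshold stayed at 3 for low-dose RE, and all rows past it numbered 702 against 787 without the block. The count of members was the same with and without the block in the other 4 comparisons. Quantile normalization, a trended robust prior and leaving out the dimmest 25% of rows kept every median and count of members within the limits used, and the 5 genes that track cerebellar content were the same after quantile normalization. Leaving out 1 array for genes of the lists, chosen after seeing the data, is given beside their values. Averaging several rows of a gene was not run because each member had 1 row. Over all rows, 567, 787, 705, 425 and 437 had unadjusted p under 0.05 in the TST, low-dose, high-dose, dose and high-dose against unstressed comparisons. By the analysis of variance of only the groups compared, 605, 487, 649, 559 and 975 passed the study's threshold. No signal over background comes with the deposited values, so what dim rows could show is unknown.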
